A study of Homo sapiens with 372 samples.

Results

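The 10 genes described here work at the step from metaphase to anaphase, and they were taken by name from the 9664 genes measured in single A2780 cells. They are BUB1, BUB1B, BUB3, MAD2L1 and TTK of the spindle assembly checkpoint, the anaphase activator CDC20, the ubiquitin-conjugating enzymes UBE2C and UBE2S, the securin gene PTTG1, and CDCA3. All 10 were listed and all 10 passed the detection limit used for the other genes. The members were chosen by function and name, but with the differences in mean E-value between treated and control cells of these same data already known, so their levels and differences are given as a description, and the share of all genes past the same limit is printed beside each count without anything being read from the pair.

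A2780 is a human ovarian endometrioid cancer line. Its cells were left untreated (control, 46 cells retained), given 5 nM paclitaxel for 16 h (56 cells) or 48 h (53 cells), given 75 µM celecoxib for 2 h (63 cells) or 16 h (61 cells), or given 5 nM paclitaxel together with 75 µM celecoxib for 16 h (the combination, 59 cells). Paclitaxel stabilizes microtubules and celecoxib inhibits cyclooxygenases. Full-length Smart-seq2 libraries were made from single cells captured on a Fluidigm C1 system, with 3 spike-in RNAs added to each well. The sample titles name neither a C1 run nor a replicate culture, and every condition was taken as 1 C1 run of 1 cell line. A condition therefore counts as 1 sample, its cells are not replicates of it, and no test between conditions was made. Whether a difference comes from the drug or from the culture, capture and preparation of its cells cannot be told apart.

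The level of a gene in a cell is its E-value, log2(N/10 + 1). Here N stands for the spike-in normalised TPM, a value per transcript length. Read numbers per cell are unknown here. The median number of genes detected (E-value above 0) lay between 6126 and 6630 per cell in the 6 conditions. The summed N of a median cell was 0.504, 0.643, 0.591 and 0.348 times the control median with paclitaxel for 16 and 48 h and celecoxib for 2 and 16 h, and 1.40 times with the combination. Because of this, each difference is given on the deposited spike-in scale and again with the N of all cells brought to 1 common sum (the same total per cell), so that a change in total RNA is taken out. Of the A2780 markers searched, KRT18 was detected in 23.9 to 36.5% and VIM in 62.5 to 86.8% of the cells of a condition. KRT8, KRT19, EPCAM and PAX8 were searched for too but were not among the 9664 listed genes. The only immune marker listed, LYZ, was detected in 37.0 to 60.7% of cells, a larger share than KRT18 in every condition. Its mean E-values lay between 0.11 and 0.24. The only fibroblast marker listed, COL1A2, was detected in 10.7 to 32.8% with means between 0.20 and 0.96. The share of cells with COL1A2 was larger than that with KRT18 only with celecoxib for 16 h, at 32.8 against 26.2%. Mean E-values were 0.45 to 1.11 for KRT18 and 1.90 to 3.70 for VIM. None of the endothelial markers searched was listed.

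In a dividing cell, kinetochores that are not yet attached to microtubules recruit the kinase TTK, also known as MPS1, and then BUB1 and BUB3. MAD2L1, BUB1B and BUB3 are assembled with CDC20 into the mitotic checkpoint complex, which holds back the anaphase-promoting complex (APC/C). Once the kinetochores are attached, free CDC20 switches the APC/C on, UBE2C starts and UBE2S extends the ubiquitin chains on its substrates, and the destruction of securin and cyclin B lets the sister chromatids part. Transcripts of most of these genes are made in G2 and M phase, in part through CCAAT boxes and through cell cycle genes homology region (CHR) elements with the core TTTGAA or TTCGAA in their promoters.

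The promoters are described for CCAAT and CHR motifs only. Whether the motifs bear on the levels or on their variation between cells was not tested. RefSeq windows on GRCh38.p14, each with 250 bases before and 50 bases after the start of the gene, were matched by symbol for 7 of the 10 genes. BUB3, TTK and UBE2C had no match. CCAAT was found on either strand in the windows of 6 of the 7 genes, against 34.6% of all 35116 windows. TTTGAA was found in 4 of the 7 (15.2% of all windows) and TTCGAA in 1 of the 7 (1.45%). Both kinds of motif stood in the same window in 4 of the 7 genes, CDC20, CDCA3, BUB1 and MAD2L1, against 6.38% of all windows. In the stretches below, of 130 bases before and 30 bases from the start in the direction of the gene, capitals mark these motifs on either strand.
CDC20, chr1:43358851-43359010, plus strand: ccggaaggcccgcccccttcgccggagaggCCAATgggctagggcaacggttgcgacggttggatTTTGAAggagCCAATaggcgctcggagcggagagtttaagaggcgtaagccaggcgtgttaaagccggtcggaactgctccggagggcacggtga
CDCA3, chr12:6851257-6851416, minus strand: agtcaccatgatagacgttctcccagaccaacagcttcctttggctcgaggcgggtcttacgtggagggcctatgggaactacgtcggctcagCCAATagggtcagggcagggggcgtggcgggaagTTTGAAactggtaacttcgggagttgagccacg
BUB1, chr2:110678034-110678193, minus strand: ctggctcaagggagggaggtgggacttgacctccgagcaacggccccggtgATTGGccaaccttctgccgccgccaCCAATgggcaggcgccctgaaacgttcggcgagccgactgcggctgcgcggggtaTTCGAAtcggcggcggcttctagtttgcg
BUB1B, chr15:40160939-40161098, plus strand: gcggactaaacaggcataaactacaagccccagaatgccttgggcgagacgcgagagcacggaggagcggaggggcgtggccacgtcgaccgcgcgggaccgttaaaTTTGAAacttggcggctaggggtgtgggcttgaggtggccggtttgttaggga
PTTG1, chr5:160421725-160421884, plus strand: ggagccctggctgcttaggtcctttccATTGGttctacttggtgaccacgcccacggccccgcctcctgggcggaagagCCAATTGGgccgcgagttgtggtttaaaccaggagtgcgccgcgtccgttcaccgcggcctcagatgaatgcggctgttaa
UBE2S, chr19:55407759-55407918, minus strand: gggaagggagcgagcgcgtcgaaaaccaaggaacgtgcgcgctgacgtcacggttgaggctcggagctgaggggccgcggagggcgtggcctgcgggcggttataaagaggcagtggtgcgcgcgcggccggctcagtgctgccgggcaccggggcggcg
The CDC20 stretch holds TTTGAA between a pair of CCAAT boxes. In CDCA3 the TTTGAA lies across the start itself, from base -3 to 3, and the CCAAT lies from base -37 to -33. In PTTG1 the 8 letters CCAATTGG hold CCAAT on both strands, and the gene has a second listed start downstream. The UBE2S stretch has none of the motifs, and its only CCAAT lies farther upstream, from base -191 to -187. In MAD2L1, whose stretch is not printed, CCAAT lies from base -229 to -225 and TTTGAA from base 25 to 30. A match of letters is a description and not a binding site.

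Every one of the 10 genes was expressed in control cells, but their levels covered a wide range. UBE2S had the highest mean E-value (6.67 ± 1.04, SD over 46 cells), followed by BUB3 (6.22 ± 1.13), UBE2C (5.86 ± 2.40), PTTG1 (5.77 ± 1.74), MAD2L1 (5.43 ± 1.37) and CDC20 (5.20 ± 2.12). CDCA3 (3.94 ± 2.18), BUB1B (2.66 ± 1.59) and BUB1 (2.18 ± 1.70) were lower, and TTK was lowest at 0.98 ± 1.32. Neighbours in this order differed by less than the SD over cells of either gene. BUB3, MAD2L1 and UBE2S were detected in all 46 control cells, and TTK in 25 of them.

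**Figure D1:**
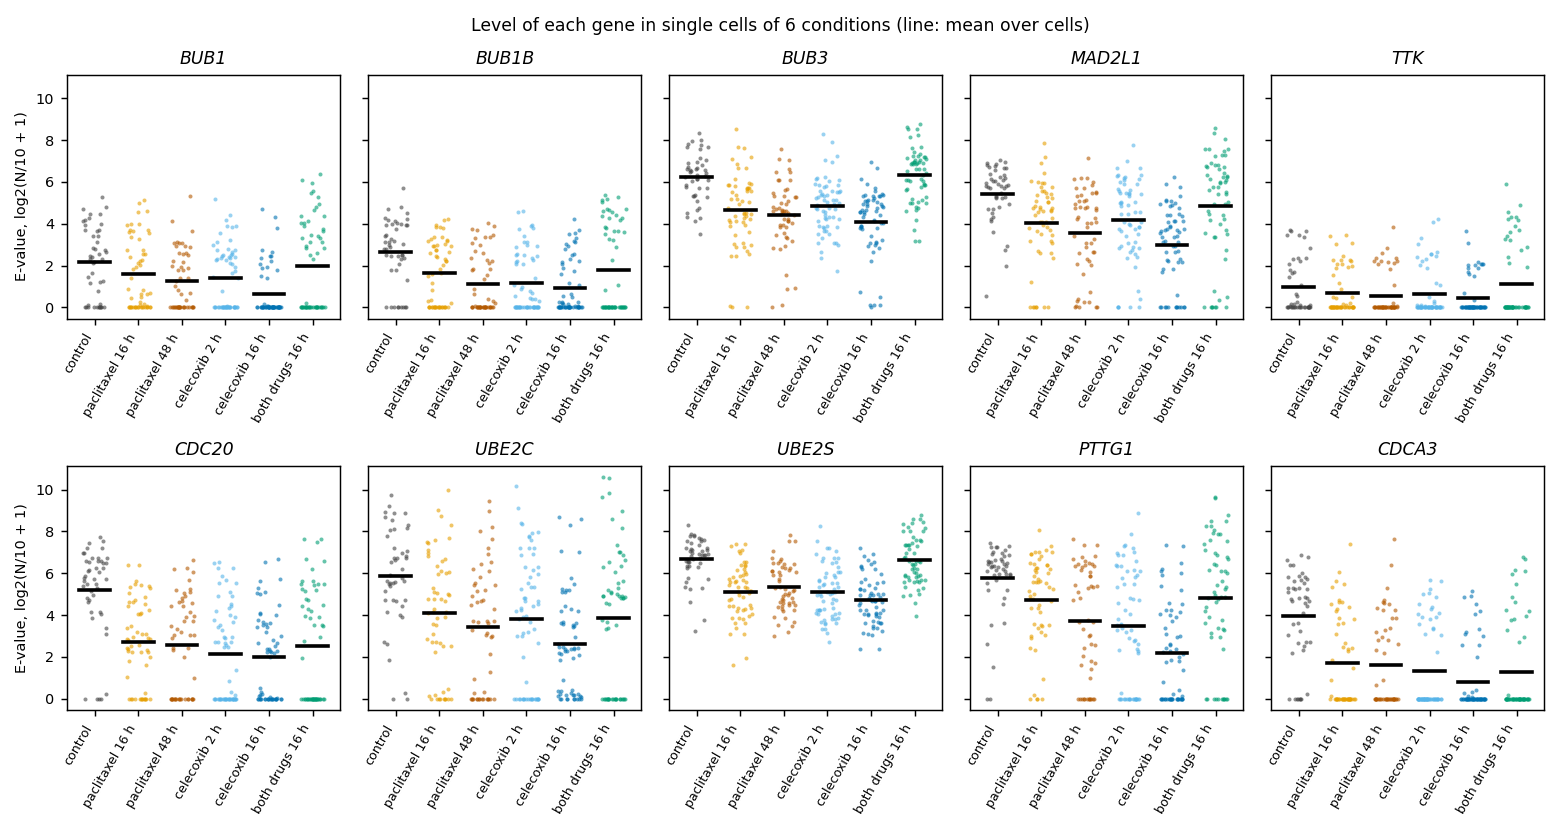
E-value (log2 scale) of each of the 10 genes in every retained cell of the 6 conditions, with 1 point per cell and a line at the mean over cells. CDC20 and CDCA3 lie lower in all 5 treatments, whereas BUB3 and UBE2S with both drugs reach the control level again and TTK is near 0 in most cells throughout.

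The checkpoint kinases BUB1 and TTK had the lowest mean E-values of the group in control cells. BUB1, which docks the other checkpoint proteins at the kinetochore, ranged over control cells from 0.00 through a median of 2.38 to 5.28. Its median was 0.77 and 0.67 with paclitaxel for 16 and 48 h, 1.39 and 0.00 with celecoxib for 2 and 16 h, and 0.21 with the combination. The ranges of cells overlapped in all conditions, and the mean was lower than in control by 0.60, 0.94, 0.77 and 1.55 with the single drugs in that order and by 0.19 with the combination. TTK, the kinase at the top of the checkpoint, had a mean of 0.98 in control and between 0.47 and 0.71 with the single drugs, and differences of -0.27, -0.41, -0.36 and -0.51 that stayed inside the limit. Its cells ranged from 0.00 through a median of 0.10 to 3.69 in control and from 0.00 through 0.00 to 5.89 with the combination, where the mean was 1.11.

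BUB1B and BUB3 are the partners that carry the checkpoint signal to CDC20. BUB1B (BubR1) covered 0.00 to 5.74 in control cells with a median of 2.96. The medians in the treated cells were far lower, at 1.73, 0.09, 0.42, 0.08 and 0.00 in the order paclitaxel 16 and 48 h, celecoxib 2 and 16 h and the combination. Its mean differences were -1.01, -1.53, -1.48, -1.71 and -0.86. BUB3 has a further role at kinetochores in stabilizing BUB1 and BUB1B and was one of the most abundant of the group. It covered 3.52 to 8.36 in control cells with a median of 6.32, and its medians were 4.64, 4.59, 4.97 and 4.57 with the single drugs but 6.61 with the combination. Its mean was lower by 1.57, 1.82, 1.35 and 2.11 with the single drugs and differed by 0.11 from control with the combination. The combination cells, from 3.17 to 8.79, overlapped the whole control range, and 33 of 59 of them lay above the control median, against 8 of 56, 6 of 53, 5 of 63 and 2 of 61 cells with the single drugs.

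MAD2L1, the MAD2 protein that closes around CDC20, covered 0.55 to 7.03 in control cells with a median of 5.81. Its medians were 4.57, 4.08, 4.48, 3.38 and 5.61 in the 5 treatments. Its mean was lower by 1.37, 1.85, 1.27 and 2.46 with the single drugs and by 0.60 with the combination, which is just past the limit.

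CDC20, the protein that the checkpoint restrains and that then activates the APC/C, was lower in all 5 treatments. It covered 0.00 to 7.75 in control cells with a median of 5.77, and its medians were 2.82 and 3.05 with paclitaxel, 2.46 and 2.23 with celecoxib and 1.95 with the combination. The mean was lower by 2.46, 2.64, 3.04, 3.18 and 2.69. Of the 9655 genes compared, CDC20 had the lowest difference with paclitaxel for 48 h, celecoxib for 2 h and the combination, and it ranked 2 from the lowest with paclitaxel for 16 h and 7 with celecoxib for 16 h. With the same total per cell it held ranks 1, 1, 1, 2 and 6 in the order just given, with differences of -2.08, -2.55, -2.82, -1.81 and -2.23. CDC20 was chosen with its deposited differences known, so nothing is read from its ranks. The ranges still overlapped, but few treated cells lay above the control median: 2 of 56, 4 of 53, 5 of 63, 2 of 61 and 6 of 59.

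The ubiquitin-conjugating enzymes of the APC/C differed from each other. UBE2C, which starts the chains, covered 0.00 to 9.75 in control cells with a median of 5.84, and its mean was lower by 1.76, 2.44, 2.05, 3.24 and 1.98 in the 5 treatments. The loss was uneven over cells, since single treated cells still reached 9.97, 9.44, 10.18, 8.70 and 10.61. UBE2S, which extends the chains, covered 3.26 to 8.29 in control cells with a median of 6.89 and was detected in all 338 cells. Its mean was lower by 1.54, 1.34, 1.55 and 1.95 with the single drugs and by only 0.05 with the combination, where the cells spanned 3.94 to 8.76.

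PTTG1 encodes securin, the inhibitor of separase that the APC/C destroys. It covered 0.00 to 7.45 in control cells with a median of 6.33, and its medians were 5.29 and 3.78 with paclitaxel, 3.51 and 1.86 with celecoxib and 5.11 with the combination. The mean difference of -3.59 with celecoxib for 16 h was the largest of any of the 10 genes in any treatment and ranked 3 from the lowest of 9655 genes. With paclitaxel the mean was lower by 1.02 at 16 h and by 2.05 at 48 h. CDCA3, which takes part in the degradation of the mitotic inhibitor WEE1 and is itself an APC/C substrate, covered 0.00 to 6.89 in control cells with a median of 4.74. In all 5 treatments its median was 0.00, and its mean was lower by 2.23, 2.33, 2.62, 3.14 and 2.66. Counted from the lowest of all genes compared, it ranked 5, 6, 2, 8 and 2. PTTG1 and CDCA3 were chosen with these differences known, so nothing is read from their ranks.

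Ordered by their mean E-value, the conditions began with control for 8 of the 10 genes and with the combination, then control, for BUB3 and TTK, and ended with celecoxib for 16 h for all 10. Most neighbours in these orders lay closer together than the SD over cells. The exceptions were control and the next condition, paclitaxel for 16 h, for CDC20 and CDCA3, control and celecoxib for 2 h for BUB3, and the combination and paclitaxel for 48 h for UBE2S, with 1 such gap in each gene.

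Counted against a limit of log2(1.5) in the mean E-value, 9 of the 10 genes were lower and 0 higher in each single-drug condition, TTK being the exception every time. TTK is weak, and with linear means it too was lower past the limit in each of them, beside 59.7, 44.0, 39.1 and 76.0% of all genes. With a pseudocount of 1 it was lower in all of them except paclitaxel for 16 h, beside 43.9, 44.5 and 62.7% of all genes in the others. The shares of all 9655 genes lower past the limit were 37.3 and 26.6% with paclitaxel for 16 and 48 h and 25.7 and 43.9% with celecoxib for 2 and 16 h, and those higher were 0.0932, 0.922, 1.12 and 0.383%. The median difference over the 10 genes was -1.46, -1.83, -1.52 and -2.28, beside -0.41, -0.26, -0.26 and -0.48 over all genes. With the combination 6 of the 10 were lower (BUB1B, MAD2L1, CDC20, UBE2C, PTTG1 and CDCA3) and 0 higher, while 1.76% of all genes were lower and 30.4% higher. The median over the 10 genes was -0.73 there, beside 0.33 over all genes. These 5 comparisons share the same control cells and are therefore not independent of each other.

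The single-drug values were smaller once every cell had the same total. With paclitaxel for 16 h 6 of the 10 genes were lower (10.0% of all genes), and BUB1, BUB1B and PTTG1, at -0.16, -0.53 and -0.27, no longer passed the limit. With paclitaxel for 48 h and celecoxib for 2 h 8 of the 10 were lower (5.78 and 8.12% of all genes), with celecoxib for 16 h 9 (7.95%), and with the combination 7 (5.80%), where UBE2S, at -0.73, joined the 6 named above. None was higher in any treatment, with 1.40, 3.28, 3.31, 7.37 and 5.96% of all genes higher. The medians over the 10 genes were -0.70, -1.26, -1.04, -1.17 and -1.06, beside -0.07, 0.00, -0.02, 0.03 and 0.02 over all genes. BUB3 and UBE2S, which matched the control on the deposited scale with the combination, were therefore lower than control at the same total, by 0.57 (just inside the limit) and 0.73, and TTK differed by -0.07.

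**Figure D2:**
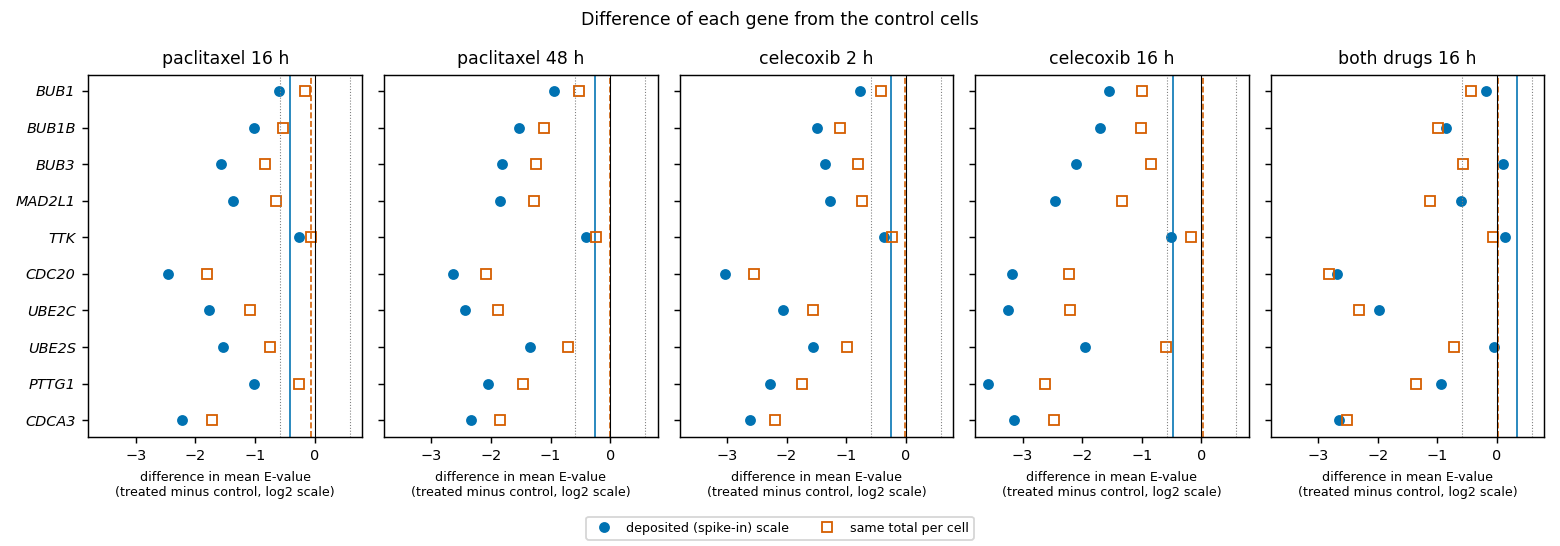
Difference in mean E-value (treated minus control, log2 scale) of the 10 genes in the 5 treatments, as deposited (filled) and with the same total per cell (open). Vertical lines give the median of all 9655 genes on each scale (solid and dashed), dotted lines the limit of log2(1.5). CDC20 and CDCA3 lie between -3.18 and -1.73 in every panel on either scale, and TTK stays inside the limit throughout.

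With the combination some of the 10 genes were near the control level and others far below it. Fewer cells detected BUB1, BUB1B and TTK than in control, and on the deposited scale the cells that detected them held more. BUB1 was detected in 50.8% of combination cells (exact Clopper-Pearson 95% interval 37.5 to 64.1%, counting error only) with a mean E-value of 3.92 in the detecting cells, against 76.1% (61.2 to 87.4%) and 2.87 in control. BUB1B was detected in 45.8% at 3.94, against 80.4% at 3.31, and TTK in 30.5% at 3.65, against 54.3% at 1.81. CDCA3 was lower in its detecting cells too, at 4.46 against 4.65. With totals made equal, the detecting cells were at 2.62 against 2.33 for BUB1, 2.64 against 2.74 for BUB1B, 2.27 against 1.41 for TTK and 3.18 against 4.06 for CDCA3. Cells above the 90th percentile of control, which 5 of 46 control cells exceeded, numbered 14 of 59 for BUB1B and PTTG1, 13 for MAD2L1, 12 for UBE2S and 11 for BUB1 and TTK, but 3 for CDC20 and 2 for CDCA3. With totals made equal these numbers were 5 for BUB1B and BUB1, 10 for PTTG1, 8 for MAD2L1 and TTK, 6 for UBE2S and 0 for CDC20 and CDCA3. With the linear mean of N, which weights such cells more, the ratio of the combination to control was 1.46 for BUB1, 1.39 for PTTG1, 1.25 for MAD2L1 and 2.07 for TTK, and it was 0.376 for CDC20 and 0.331 for CDCA3. In linear means 72.2% of all genes were more than 1.5-fold higher with the combination and 1.34% lower, with a median log2 ratio of 0.93 over all genes, and the direction for BUB1, MAD2L1 and PTTG1 on the deposited scale differed between the log and the linear average. With totals made equal their linear mean N was below control, at 35.2 against 41.8 for BUB1, 262 against 353 for MAD2L1 and 431 against 498 for PTTG1. The combination cells also came from both of its blocks of 96 library indices, and 3 of the 10 genes were lower than control in the 34 cells of block 1 (BUB1B was at -0.54 there) against 7 in the 25 cells of block 3 (BUB1 at -0.62 and PTTG1 at -1.61). Of all genes 1.55% were lower and 33.9% higher in block 1, and 3.44% lower and 28.2% higher in block 3.

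Adding celecoxib to paclitaxel at 16 h, 3 of the 10 genes were higher than with paclitaxel alone (BUB3 by 1.67, UBE2S by 1.496 and MAD2L1 by 0.77) and 0 were lower, where 62.5% of all genes were higher and 0.0311% lower. Of the other 7, CDC20, UBE2C and CDCA3 were at -0.23, -0.21 and -0.43, and the median over the 10 genes was 0.28, beside 0.80 over all genes. With totals made equal 0 of the 10 were higher and 4 were lower, UBE2C by 1.23, PTTG1 by 1.09, CDC20 by 1.01 and CDCA3 by 0.79, where 9.57% of all genes were higher and 1.64% lower. The checkpoint genes BUB1, BUB1B, BUB3, MAD2L1 and TTK lay between -0.47 and 0.26 on that scale. All cells with paclitaxel alone for 16 h carried index block 1. Within that block the combination cells were higher for BUB3 (1.85), UBE2S (1.599), MAD2L1 (1.13) and BUB1 (0.72) on the deposited scale, beside 63.3% of all genes.

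Adding paclitaxel to celecoxib at 16 h, 8 of the 10 genes were higher than with celecoxib alone, led by PTTG1 (2.64), BUB3 (2.22), UBE2S (1.91) and MAD2L1 (1.86), and the other two, CDC20 and CDCA3, were each at 0.49. Of all genes 66.0% were higher and 0.0414% lower. Once rescaled, PTTG1 alone was higher, by 1.26, and CDC20 alone lower, by 0.59, beside 5.03% of all genes higher and 4.39% lower. In index block 3, which holds all cells with celecoxib alone for 16 h, 6 of the 10 were higher with both drugs, beside 63.9% of all genes. PTTG1, by 1.98, and BUB3, by 1.97, were among them.

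Between the 2 paclitaxel times, UBE2C and PTTG1 were lower at 48 h than at 16 h, by 0.68 and 1.02, and 0 of the 10 were higher, where 0.352% of all genes were lower and 7.89% higher. On the same-total scale MAD2L1 was lower too (by 0.62) and none was higher, with 1.18% of all genes lower and 6.18% higher. Between the celecoxib times, 5 of the 10 were lower at 16 h than at 2 h and 0 higher, where 19.4% of all genes were lower and 0.528% higher. They were PTTG1 (-1.31), MAD2L1 (-1.19), UBE2C (-1.18), BUB1 (-0.78) and BUB3 (-0.76). Of these, PTTG1 at -0.88 and UBE2C at -0.64 were still past the limit at the same total and none was higher, beside 3.90% of all genes lower and 7.88% higher. On the deposited scale CDC20 differed by -0.18 between the paclitaxel times and by -0.14 between the celecoxib times. Its difference from control at 2 h of celecoxib was there nearly as large as at 16 h. At the same total the differences between the times were -0.27 with paclitaxel and 0.32 with celecoxib. The difference of CDC20 from control was then -2.55 at 2 h and -2.23 at 16 h of celecoxib.

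Across single cells the drop appeared both as fewer genes detected per cell and as fewer cells with the whole group. All 10 genes were detected in 21 of 46 control cells, 45.7% (30.9 to 61.0%), and in 23.2% (13.0 to 36.4%) and 18.9% (9.44 to 32.0%) of cells with paclitaxel for 16 and 48 h. With celecoxib for 2 and 16 h the shares were 15.9% (7.88 to 27.3%) and 11.5% (4.74 to 22.2%), and with the combination 11.9% (4.91 to 22.9%). The median number of the 10 genes detected was 9 in control, 8 and 7 with paclitaxel, 6 and 6 with celecoxib and 6 with the combination. Cells with 5 or fewer were 3 of 46 in control and 23 of 59 with the combination.

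**Figure D3:**
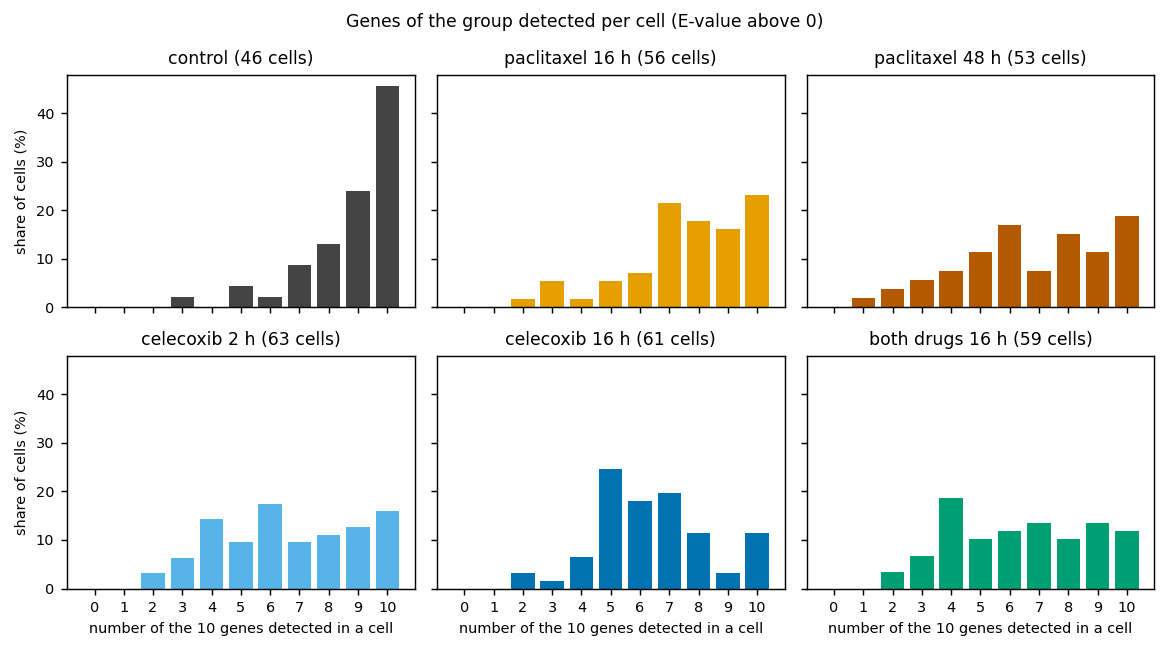
Share of cells (%) by the number of the 10 genes detected, in each of the 6 conditions. Control cells pile up at 10 (45.7%), and the cells of the combination and of both celecoxib times spread over fewer genes.

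In some cells CDC20, CDCA3 and UBE2C were all at 0. The cells at 0 for CDC20 numbered 4 in control, and 13, 20, 27, 21 and 29 in the 5 treatments, and 3, 12, 18, 24, 17 and 26 of these were at 0 for CDCA3 as well. CDCA3 itself was detected in 39 of 46 control cells, but in only 26 of 56, 23 of 53, 20 of 63, 18 of 61 and 17 of 59 treated cells. Part of the overlap follows from this low detection, and how much was not tested. All 3 genes were at 0 in 2 of 46 control cells, 4 of 56 and 12 of 53 cells with paclitaxel, 14 of 63 and 6 of 61 cells with celecoxib, and 15 of 59 combination cells (25.4%, 15.0 to 38.4%). All of these 15 combination cells held BUB3 and UBE2S, as did all 59 combination cells. MAD2L1 was detected in 11 of the 15 and PTTG1 in 11, against 52 and 48 of all 59 combination cells. The median log2 total of the 15 cells relative to control was 0.17, against 0.72 in the other combination cells. All 3 genes were detected together in 38 of 46 control cells (82.6%, 68.6 to 92.2%), and in 24, 20, 17, 13 and 14 cells of the 5 treatments, of which the highest share was 42.9% (29.7 to 56.8%) with paclitaxel for 16 h.

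Some treated cells stayed within the control range. The mean E-value over the 10 genes was computed for each cell, with a control median of 4.70 (lowest 0.99, highest 6.48). Above that median lay 10 of 56 and 5 of 53 cells with paclitaxel for 16 and 48 h, 8 of 63 and 3 of 61 with celecoxib for 2 and 16 h, and 12 of 59 with the combination. At the same total the counts were 14, 9, 14, 10 and 9. The highest single cell was a combination cell at 7.77. In the deposited classification of the cells by the study, which was itself made from expression values, the 23 cells with 16 h of paclitaxel called control-like had a mean over the 10 genes of 3.85, the 31 called suppressive 2.36 and the 2 called activated 6.11. Rescaled, these were 3.74, 2.74 and 4.41. With celecoxib for 2 h the 26 control-like, 33 suppressive and 4 activated cells had means of 3.17, 2.19 and 5.64, or 3.00, 2.37 and 4.58 at the same total. Within a condition the mean over the 10 genes went up with the total of the cell, over 46 to 63 cells that count as 1 sample. Pearson's r lay between 0.43 and 0.74 on the deposited scale and between 0.29 and 0.60 at the same total.

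The 10 genes varied together from cell to cell. Over the 338 cells, centred by condition and at the same total, Pearson's r was above 0 for all 45 pairs, with a median of 0.49. The highest was 0.71 between UBE2S and PTTG1, and the lowest 0.17 between BUB3 and UBE2S. UBE2C stood closest to the rest, with an r of 0.83 with the mean of the other genes, followed by CDC20 (0.73), CDCA3 (0.72) and BUB1 (0.71), and BUB3 (0.45) and TTK (0.47) stood farthest. The median r was 0.51 within control cells, 0.45 and 0.49 with paclitaxel for 16 and 48 h, 0.50 and 0.52 with celecoxib for 2 and 16 h and 0.48 with the combination. The values of a cell share its library, its spike-in scaling and its number of reads, and the cells of a condition count as 1 sample. The correlations are a description. The share of pairs above 0 among all genes is not given here, so nothing particular to these genes is read from the count.

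**Figure D4:**
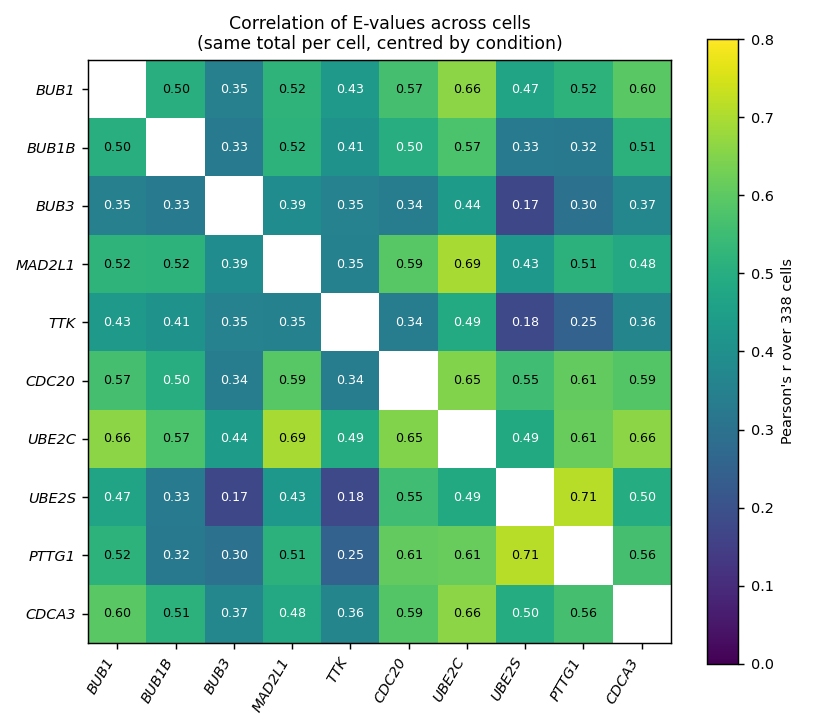
Pearson's r between each pair of the 10 genes over 338 cells, at the same total per cell and centred by condition. All 45 pairs are above 0, UBE2S with PTTG1 is highest at 0.71, and BUB3 and TTK show the lowest values with UBE2S.

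Among genes outside the group, those most like its mean over the same 338 cells were PBK (r = 0.82), AURKB (0.81), NEK2 (0.80), BIRC5 (0.79), HMGB2 (0.79), TOP2A (0.79), DLGAP5 (0.79), PLK1 (0.78), CENPF (0.78) and CCNB2 (0.77). Most are known from mitosis or G2. AURKB, the kinase that corrects faulty attachments, was lower than control by 2.26, 2.43, 2.50, 4.00 and 2.15 in the 5 treatments, and TOP2A, the topoisomerase that untangles sister chromatids, by 0.54, 0.99, 0.61, 1.39 and 0.59. Taken singly, the nearest gene to each was CENPF for BUB1 (0.67), NEK2 for BUB1B (0.59), CDK1 for BUB3 (0.52), UBE2C for MAD2L1 (0.69), NDC80 for TTK (0.54), PBK for CDC20 (0.68), NUSAP1 for UBE2C (0.75), PTTG1 for UBE2S (0.71), BIRC5 for PTTG1 (0.76) and PLK1 for CDCA3 (0.69).

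The subunits of the APC/C itself gave other values. Of the 13 listed core subunits of the APC/C, 7, 8, 7 and 10 were lower with the single drugs in the order used above. The shares of all genes lower were 37.3, 26.6, 25.7 and 43.9%. With celecoxib for 2 h 1 was higher, ANAPC16, beside 1.12% of all genes. With the combination 7 were higher and 0 lower, beside 30.4 and 1.76% of all genes. At the same total 0, 1, 1, 3 and 1 were lower, beside 10.0, 5.78, 8.12, 7.95 and 5.80% of all genes. There 1, 1, 1, 2 and 1 were higher, beside 1.40, 3.28, 3.31, 7.37 and 5.96% of all genes. The median differences of the list were -0.20, -0.17, -0.22, -0.03 and -0.02, beside -0.07, 0.00, -0.02, 0.03 and 0.02 over all genes. ANAPC16 had the largest positive difference of the list in every treatment, at 0.27, 0.25, 0.90, 0.11 and 1.94 as deposited and 0.93, 0.74, 1.36, 1.33 and 1.20 at the same total. The largest negative differences were those of ANAPC15 with paclitaxel for 16 h (-1.14), celecoxib for 2 h (-1.39) and the combination (-0.25), of ANAPC10 with paclitaxel for 48 h (-1.08) and of the subunit CDC27 with celecoxib for 16 h (-1.93).

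Of the 5 APC/C regulators, PLK1, the kinase that marks the APC/C inhibitor FBXO5 for destruction, was lowest against control in every treatment, by 1.90, 2.37, 2.02, 2.43 and 1.94. TRIP13, the ATPase that reopens MAD2, was lower by 1.34, 1.71, 1.69, 2.26 and 1.15. Both were past the limit in all 5 treatments on both scales. MAD2L1BP, which hands MAD2 to TRIP13, was past it with each single drug on the deposited scale only (-1.08, -0.76, -0.83 and -0.64), and FBXO5 with celecoxib for 16 h (-0.60). FZR1, the other activator of the APC/C, lay between -0.21 and 0.11. Its control mean E-value was only 0.40, so it could not fall past the limit.

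Beside the counts of lower genes in this paragraph stand the shares of all genes lower in the 5 treatments. They were 37.3, 26.6, 25.7, 43.9 and 1.76% as deposited and 10.0, 5.78, 8.12, 7.95 and 5.80% at the same total. Of 17 other checkpoint and kinetochore genes, 12, 13, 11 and 15 were lower with the single drugs and 4 with the combination. At the same total 4, 9, 5, 10 and 10 of them were lower. AURKB was lowest in each treatment, and the largest positive difference was 0.58 for the MAD2 partner MAD1L1 with the combination, just inside the limit. Of 18 APC/C substrates, 16, 17, 17 and 18 were lower with the single drugs and 10 with the combination, with medians of -1.23, -1.25, -1.15, -2.08 and -0.81, and at the same total 9, 13, 10, 12 and 11. Cyclin B1 (CCNB1) led them with the single drugs (-2.01, -2.51, -2.32 and -3.60), and the ribonucleotide reductase subunit RRM2 with the combination (-2.00). Of 13 cohesion and separase genes, 1, 4, 0 and 8 were lower with the single drugs. With the combination 4 were higher, beside 30.4% of all genes. At the same total 0 of the 13 passed the limit in either direction in any treatment, where 1.40, 3.28, 3.31, 7.37 and 5.96% of all genes were higher. The separase gene ESPL1, whose product securin inhibits, had a control mean of only 0.45 and was at -0.40 with the combination, and the cohesin subunit SMC3 was at -1.20 with celecoxib for 16 h, which was 0.06 at the same total.

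Of 13 genes for factors that bind G2/M promoters, 6, 5, 6 and 8 were lower with the single drugs (37.3, 26.6, 25.7 and 43.9% of all genes). With the combination 1 was lower and 1 higher (1.76 and 30.4% of all genes). On the rescaled values 3, 1, 3, 1 and 4 were lower (10.0, 5.78, 8.12, 7.95 and 5.80% of all genes). MYBL2, which activates CHR promoters with the MuvB complex, was lower by 1.40, 1.26, 1.34, 1.80 and 0.81 in the 5 treatments. E2F4, of the repressor DREAM, was at -1.83, -0.83, -1.17 and -1.28 with the single drugs and at -0.36 with the combination. RBBP4 was higher by 0.90 with the combination, and by 0.21 at the same total. The shares of all genes lower that are given above for each treatment and scale also stand beside the counts of the Seurat lists. Of the 42 S phase genes distributed with Seurat, 29, 34, 23, 40 and 10 were lower in the 5 treatments as deposited and 12, 15, 12, 18 and 19 at the same total. Of its 47 G2/M genes outside the group, 33, 40, 32, 45 and 13 were lower as deposited and 7, 21, 14, 24 and 24 at the same total. The median of the 10 genes described here was farther below 0 than that of any of these lists in every treatment on both scales, except beside the APC/C substrates with the combination as deposited (-0.73 against -0.81) and with celecoxib for 16 h at the same total (-1.17 against -1.26). The 10 genes were chosen with these differences known and were taken out of the lists, so nothing is read from this order.

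**Figure D5:**
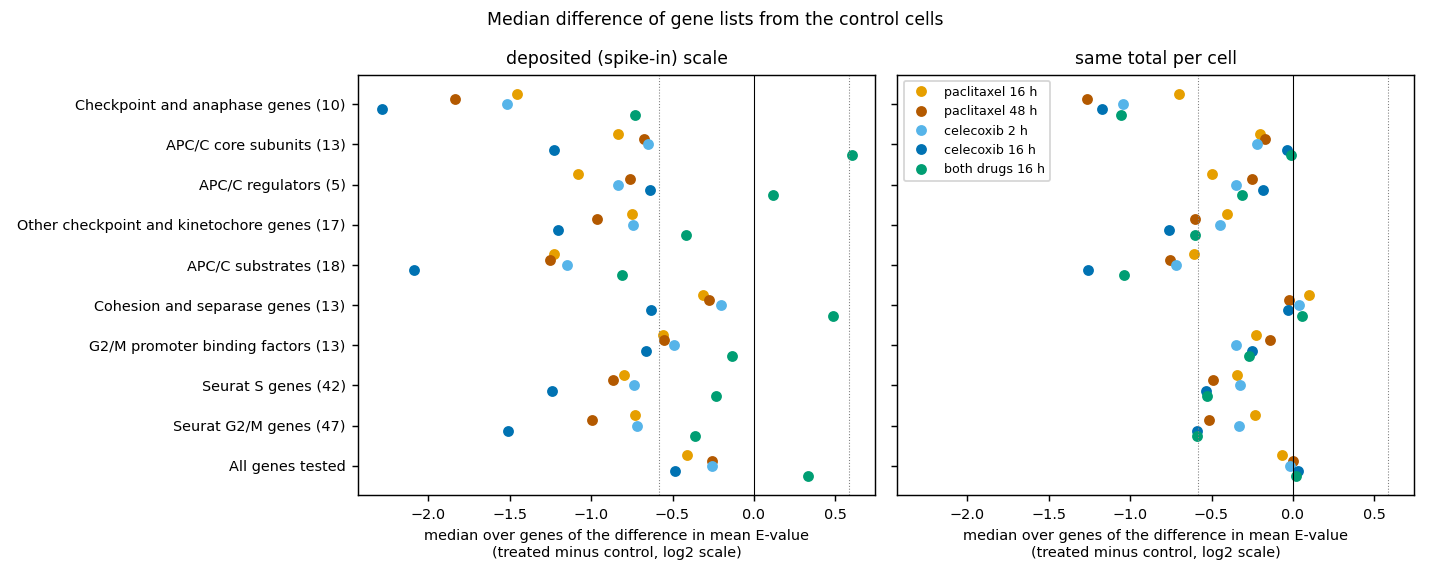
Median over genes of the difference in mean E-value (treated minus control, log2 scale) for the 10 genes and 8 other lists (number of genes in brackets), as deposited and with the same total per cell, beside all 9655 genes. The 10 genes and the APC/C substrates lie farthest to the left, and the APC/C core and cohesion lists lie near all genes at the same total. The 10 genes were chosen with these differences known, so nothing is read from their place.

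The genes lie on 10 different chromosomes (GENCODE version 44, hg38). CDC20 is at chr1:43358981-43363203 (plus strand), CDCA3 at chr12:6844793-6851292 (minus strand), UBE2C at chr20:45812576-45816957 (plus strand) and PTTG1 at chr5:160421855-160428739 (plus strand), and all 10 are protein coding. CDCA3 overlaps GNB3 and UBE2S overlaps RPL28 on the other strand, and BUB1B overlaps PAK6 and the readthrough gene BUB1B-PAK6 on its own strand. UBE2C has 5 pseudogenes named after it, UBE2S 2, and BUB1, BUB3, MAD2L1, CDC20 and CDCA3 1 each, and PTTG1 has near-identical copies. Whether the counting used the strand is not given in the sources used here, so the part of reads from overlapping genes and copies in these values was not tested.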

How the data were processed

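The deposited E-values, log2(N/10 + 1), cover 9664 genes in 338 cells. The authors removed adapters with Trim Galore. They estimated TPM with RSEM 1.3.0, run with Bowtie2 against hg38 transcripts (GENCODE version 28) and 3 spike-ins, and scaled each cell to its highest spike-in (N). Of 372 cells they removed 34 with poorly detected housekeeping genes (11 of 57, 2 of 58, 12 of 65, 3 of 66, 6 of 67 and 0 of 59 in the order control, paclitaxel 16 and 48 h, celecoxib 2 and 16 h, combination). Genes had to be detected in over 30% of cells in a condition. Read numbers are not known here, and no doublet caller was run.

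From the deposited log2 values the mean E-value of each gene per condition was taken, and a difference past log2(1.5) was counted among the 9655 genes that met the 30% limit here. For the same total per cell, N was rescaled to the median total of the 338 cells. The offset of 10 makes changes of weak genes look smaller. Shares have exact Clopper-Pearson 95% intervals for counting error only. The 10 genes and all lists were chosen with earlier results of these data known. The rule for named genes took the 10, the largest rise and fall of each list per treatment, any past the limit in a list of 5 or fewer, the 10 others most like the mean of the group and the nearest to each, and not every gene it takes is printed. The steps were tested on simulated data. Alternatives were the same total, linear means, a pseudocount of 1, medians, index blocks alone, other detection limits, and no wells noted as 0 or debris. Comparisons within an index block were added after seeing the data. The software was R 4.3.3 with Seurat 5.3.0 and Python 3.11.15 with scipy 1.17.1, numpy 2.4.6, matplotlib 3.10.9 and pandas 2.3.3.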

Additional observations from a re-analysis of the deposited data

Results flagged for a closer look

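At 16 h, 3 of the 10 genes were past the 1.5-fold limit on the lower side for celecoxib alone against control and on the higher side for the combination against paclitaxel alone, as were 37.6% of all genes. With totals made equal 0 of the 10 and 0.570% of all genes were. BUB3 was at -2.11 in mean E-value for celecoxib alone against control and at 1.67 for the combination against paclitaxel alone, MAD2L1 at -2.46 and 0.77, and UBE2S at -1.95 and 1.496. With the same total per cell the values were -0.85 and 0.26 for BUB3, -1.33 and -0.47 for MAD2L1 and -0.59 and 0.02 for UBE2S. The summed N of the median combination cell was 1.40 times the control median and that of the median cell with paclitaxel for 16 h 0.504 times, and their part in the result was not tested beyond this rescaling. Each condition was taken as 1 C1 run, so the difference between both directions was not tested.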

How the results depend on the processing

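No paired analysis was possible because the conditions share no replicate numbers and no result comes from a test. With 1 sample a condition, no replicate could be left out. For the 4 single-drug conditions the counts of genes past the limit stayed within 1.5 times under each alternative listed under the processing, and their median differences stayed past the limit on the same side. The combination against control was less stable. Its median difference over the 10 genes was 0.17 with linear means and -0.35 in index block 1 alone, with 2 and 3 genes lower (1.34 and 1.55% of all genes) and, with linear means, 1 higher (72.2% of all genes), and MAD2L1 was at 0.32 and PTTG1 at 0.48 with linear means. For the combination against paclitaxel at 16 h, 4 genes were lower and 0 higher at the same total (MAD2L1 at -0.47). There 1.64% of all genes were lower and 9.57% higher. With linear means 9 were higher (96.5% of all genes). With a pseudocount of 1, with medians over cells and in index block 3, 3, 2 and 3 were lower (0.445, 0.849 and 0.186% of all genes). Against celecoxib at 16 h, the combination had 1 gene lower and 1 higher at the same total, beside 4.39 and 5.03% of all genes. UBE2C was at -0.11 and UBE2S at -0.14 there. With medians over cells 5 were higher (56.1% of all genes, BUB1B at -0.08). From 16 to 48 h of paclitaxel 4 genes were lower in index block 2 and 1 in index block 4 (1.96 and 0.518% of all genes), and from 2 to 16 h of celecoxib 2 were lower at the same total (3.90% of all genes). The cause of these changes was not tested.

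The medians of the other lists moved with the rescaling to the same total, in the order paclitaxel 16 and 48 h, celecoxib 2 and 16 h and combination. They became -0.20, -0.17, -0.22, -0.034 and -0.015 for the APC/C core subunits, of which the last changed sign, and -0.50, -0.25, -0.35 and -0.18 for the APC/C regulators with the single drugs. The other checkpoint and kinetochore genes were at -0.40 with paclitaxel for 16 h and -0.45 with celecoxib for 2 h, both now inside the limit. With the combination they were at -0.60, now past it. They stayed past the limit with paclitaxel for 48 h (-0.60) and celecoxib for 16 h (-0.76). With celecoxib for 16 h the cohesion and separase genes were at -0.030 and the G2/M promoter binding factors at -0.25. The Seurat S genes were at -0.34, -0.49, -0.33 and -0.53 with the single drugs, and the Seurat G2/M genes at -0.24, -0.51 and -0.33 with the first 3 treatments and at -0.59 with the combination. The share of cells with celecoxib for 16 h above the control median of the group was 16.4%. Of the 290 values of single genes against control under an alternative, 262 kept their side of the limit and their direction. The 1 combination cell from a well noted as holding 0 cells or debris moved no count beyond 1.5 times when left out.

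How many reads each cell received is not known, so a gene at 0 in a cell may be expressed below what that cell's library could show, most of all TTK, BUB1 and BUB1B. Of the treated cells, only some of those with paclitaxel for 48 h share an index block with the control, block 4, and there 9 of the 10 genes were lower with a median of -1.61 (22.5% of all genes lower).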
